A study of Homo sapiens with 6 samples.

Results

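Melanoma cells can move between a differentiated, pigment-making state and dedifferentiated, neural crest-like or mesenchymal states, a process known as phenotype switching. It shares regulators and surface markers with the epithelial to mesenchymal transition (EMT), in which cells lose epithelial adhesion and gain motility. The 10 genes described here are markers and transcription factors of these states, namely CD44, NGFR, AXL, SOX9, ZEB1, ZEB2, SNAI2, TCF4, CDH1 and CDH2. They were taken by name, with earlier results of these data known, and found through their Ensembl gene identifiers among 13449 genes listed in the deposited table. In all, 6 of the 10 were listed, which were CD44, NGFR, ZEB2, SNAI2, CDH1 and CDH2. The other 4, AXL, SOX9, ZEB1 and TCF4, were absent and have no value here.

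The cells were of the line SK-MEL-28, from a human melanoma of the skin. They were transfected with an siRNA against the long noncoding RNA DANCR (siDANCR, 3 libraries) or with a non-targeting control siRNA (control, 3 libraries), and poly(A) RNA was sequenced from all 6. Which DANCR siRNA these libraries received is not in the labels, nor whether replicates came from separate cultures. The level used here is the authors' mean normalised count, a read count scaled for sequencing depth and averaged over the siDANCR and control libraries together. There were 0 columns of values per library, so the spread between libraries and the exact depth of each library are unknown and the levels carry no error. The authors' own comparison of siDANCR with control cells, which the table also holds, was not used here, so no difference between the groups is given and the level of DANCR was not checked by group. DANCR stood at an authors' mean of 425.9 normalised counts over all libraries.

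The study's oligonucleotide list names a pair of DANCR siRNAs and a control. Their antisense strands are shown because they define the perturbation, with the seed (bases 2 to 8 from the 5′ end) in capitals.
siDANCR1 antisense: uCCUAUUGuaacugaaggg
siDANCR2 antisense: aGCGCCUAgauaacgguuc
Control antisense: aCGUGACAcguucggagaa
All are RNA strands of 19 bases.

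The mean normalised counts of the 13449 listed genes ran from 23.1 to 617311, with a median of 322.5 and a sum of 15059759. The label of the cells was checked against markers. All 6 melanocyte markers (MITF, SOX10, PMEL, MLANA, TYR and DCT) were listed, against 1 of 5 for keratinocytes (KRT10), 1 of 5 for fibroblasts (LUM), 1 of 2 for endothelial cells (VWF) and 0 of 4 for leukocytes. Mean normalised counts were 645.3 for LUM, 288.6 for KRT10 and 24.3 for VWF. The leukocyte genes PTPRC, CD3E, CD14 and CD79A were absent. All 6 melanocyte markers were thus present, although the fibroblast marker LUM also lay above the median of 322.5.

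The share of the genes of interest that was listed, 60%, was close to the 56.6% of all annotated protein-coding genes that were listed (11423 of 20175). Together the 6 listed genes held 0.093% of all mean normalised counts. CD44 and SNAI2 made up 72.3% of that sum. To compare genes of different length, each mean was divided by the length of the gene's canonical transcript, which gives a level per kilobase (kb). On this scale the order from high to low was SNAI2, CD44, ZEB2, CDH2, NGFR and CDH1. The median over all listed genes with a length was 111.6 normalised counts per kb. Of the 6 genes, 5 lay above it and CDH1 lay below it. With the longest transcript or all annotated exons as the length, the median was 96.2 or 69.8 per kb and all 6 lay above it. Because the means have no spread, it is not known which neighbours in this order differ beyond the error between libraries.

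**Figure D1:**
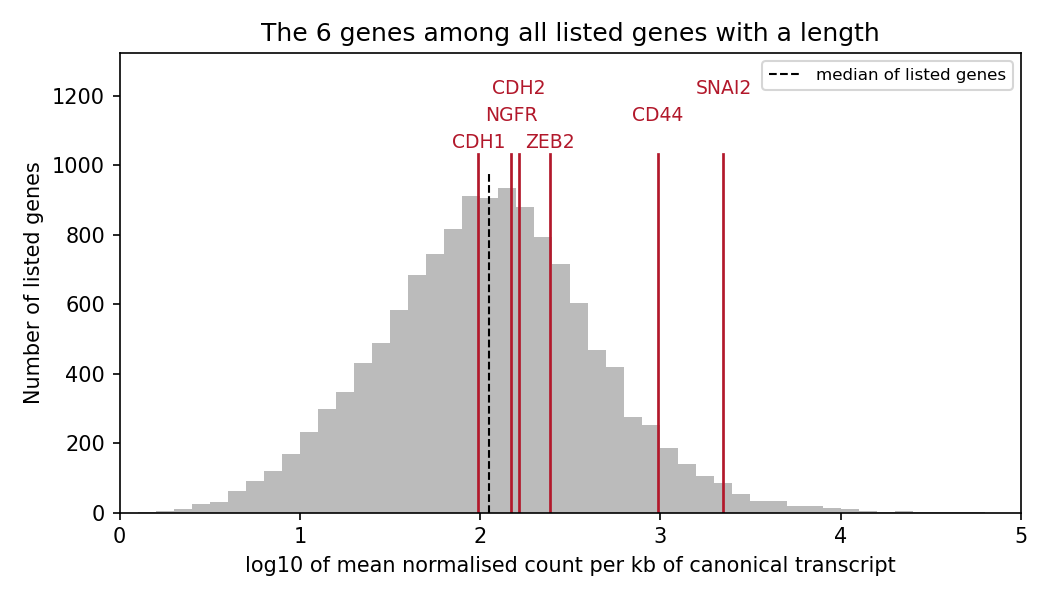
Histogram of the log10 level per kb for the 13029 listed genes with a canonical transcript length (all 6 libraries pooled). Red lines mark the 6 listed phenotype switching and EMT genes and the dashed line marks the median of 111.6 normalised counts per kb. SNAI2 and CD44 stand in the upper tail, while CDH1, NGFR and CDH2 lie near the centre. ZEB2 lies between these groups, at the 72.6th percentile.

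Among the listed transcription factors of the set, SNAI2 and ZEB2, SNAI2 stood higher. SNAI2, or SLUG, is a zinc finger repressor of CDH1 that works in neural crest migration and is part of the normal melanocyte lineage. The gene (ENSG00000019549) is at positions 49830157 to 49834299 of chromosome 8 (GRCh37, minus strand). Its authors' mean was 4881 normalised counts, or 2239 per kb of a 2180-base transcript. This placed it at rank 249 of 13029 genes, the 98.1th percentile. Its level per kb was close to that of MITF (2239 for SNAI2 and 2179 for MITF), the master factor of the melanocyte lineage, and below that of SOX10 at 6839. With longest transcripts SNAI2 stood at 1726 per kb, 0.79 times the level of MITF. By canonical length SNAI2 was 19.1 times as high as SNAI1, the founding member of the same family, at 117.3 per kb (12.7 times with all exons). SNAI3, the remaining family member, was not listed.

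ZEB2 was the listed member of the ZEB pair. ZEB1 and ZEB2 are zinc finger and homeodomain repressors that bind the same E-box sequence. In melanocytes and differentiated melanoma ZEB2 is the form usually present, and ZEB1 is known from dedifferentiated melanoma. ZEB2 (ENSG00000169554) is at positions 145121931 to 145278624 of chromosome 2 (GRCh37, minus strand). Its authors' mean was 2248 normalised counts, but its canonical transcript is long (9265 bases) and its level was 242.6 per kb, at the 72.6th percentile. SNAI2 was 9.23 times as high per kb. By canonical length ZEB2 was 2.07 times as high as SNAI1, and it stood at 242.6 per kb against 264.1 per kb for the helix-loop-helix factor TWIST1. These comparisons depend on the length measure. With all exons ZEB2 stood at 86.0 per kb, SNAI2 was 17.3 times as high as ZEB2, and ZEB2 lay below SNAI1 (0.73 times) and TWIST1 (0.40 times). ZEB1 (ENSG00000148516, chromosome 10 from 31607424 to 31818742, GRCh37) was not listed, so no ratio of ZEB2 to ZEB1 can be given.

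SOX9 and TCF4 were also not listed. SOX9 is an HMG-box factor of neural crest and cartilage that is antagonistic to SOX10 in melanoma, and SOX10 stood at 6839 per kb. TCF4 is a class I helix-loop-helix protein, or E2-2, that pairs with tissue-specific factors and is known from mesenchymal-like melanoma. The related class I genes TCF3 and TCF12 were listed at 122.8 and 94.1 per kb. SOX9 (ENSG00000125398) lies on chromosome 17 from 70117161 to 70122557 and TCF4 (ENSG00000196628) on chromosome 18 from 52889416 to 53332018 (GRCh37). The lowest mean in the table was 23.1 normalised counts, and whether an absent gene lay under a filter of the authors was not tested.

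Of the surface receptors, CD44 was the most abundant. CD44 binds hyaluronan in the extracellular matrix and is spliced into many isoforms. The gene (ENSG00000026508) is at positions 35160429 to 35253949 of chromosome 11 (GRCh37, plus strand) and has 38 annotated transcripts, which the deposited value does not separate. Its authors' mean was 5241 normalised counts, the highest of the 6 genes, or 965.0 per kb of a 5431-base transcript. This was the 94.2th percentile, at rank 752. SNAI2 exceeded it 2.32-fold per kb, since the SNAI2 transcript is shorter. CD44 was 6.48 times as high as NGFR (4.28 times with all exons) and 55.1 times as high as EGFR, a receptor of dedifferentiated melanoma that stood at 17.5 per kb.

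NGFR, the low-affinity neurotrophin receptor CD271 and a marker of neural crest-like melanoma cells, was listed at a moderate level. The gene (ENSG00000064300) is at positions 47572655 to 47592370 of chromosome 17 (GRCh37, plus strand). Its authors' mean was 507.3 normalised counts, or 148.9 per kb of a 3408-base transcript, at the 58.8th percentile. It was 24.2 times as high as the neurotrophin receptor gene NTRK2 at 6.14 per kb (76.4 times with all exons), while NTRK3 was not listed. The level of NGFR was below that of SORT1, its sorting co-receptor, with 148.9 per kb for NGFR and 1395 per kb for SORT1.

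AXL, a receptor tyrosine kinase of the TAM family that marks melanoma with low MITF, was not listed. The gene (ENSG00000167601) is at positions 41725128 to 41767671 of chromosome 19 (GRCh37, plus strand). The other TAM receptors were listed, TYRO3 at 123.6 per kb and MERTK at 86.6 per kb. So were the TAM ligands, with PROS1 at 110.0 per kb and GAS6 at 23.8 per kb.

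The cadherins are calcium-dependent adhesion molecules, and a change from CDH1 (E-cadherin) to CDH2 (N-cadherin) is a textbook feature of EMT. In skin, E-cadherin ties melanocytes to keratinocytes. Both genes were listed in SK-MEL-28 cells. CDH2 (ENSG00000170558, minus strand of chromosome 18 from 25512843 to 25757910, GRCh37) had an authors' mean of 658.8 normalised counts, or 164.0 per kb at the 61.5th percentile. CDH1 (ENSG00000039068, plus strand of chromosome 16 from 68771195 to 68869440, GRCh37) had an authors' mean of 470.5 normalised counts, or 97.8 per kb at the 45.8th percentile. CDH2 was thus 1.68 times as high as CDH1 per kb of canonical transcript, and 0.99 times as high when the length of all annotated exons was used. CDH2 therefore stood above CDH1 only by transcript length, and both were nearly level with all exons. Both were below 3 of the 4 listed genes of catenins, the proteins that join cadherins on the inner side of the membrane, with CTNNB1 at 1235 per kb, CTNNA1 at 1111 per kb and CTNND1 at 574.2 per kb. The other, JUP (plakoglobin), stood below both at 11.4 per kb. Of 13 other cadherin and catenin genes, 7 were listed, with a median of 41.6 per kb. The next cadherin, CDH24, stood at 41.6 per kb, followed by the neural crest cadherin CDH19 at 14.2 and CDH4 at 5.45 per kb, and CDH3, CDH5, CDH6, CDH11, CDH13 and CDH15 were absent.

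**Figure D2:**
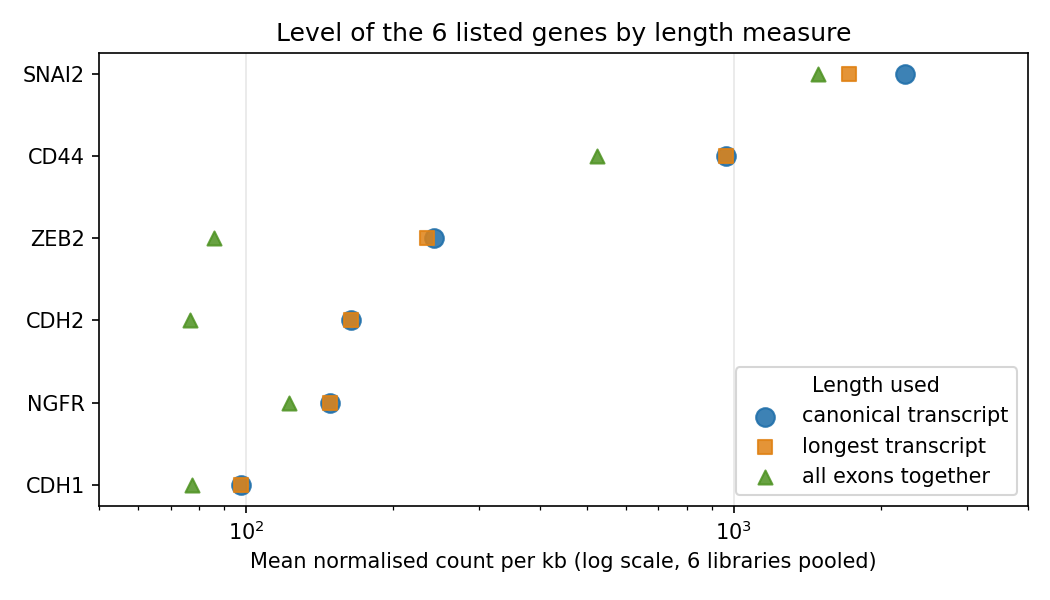
Level of each of the 6 listed genes in mean normalised counts per kb on a log axis (all 6 libraries pooled), with the canonical transcript, the longest transcript or all exons together as the length. SNAI2 and CD44 stay first and second under all 3 measures, whereas CDH2 (164.0, 164.0 and 76.8) and CDH1 (97.8, 97.8 and 77.4) are nearly level with all exons.

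Levels were then set beside lists of related genes, as counts and medians only. The 6 listed genes had a median of 203.3 per kb. Of 15 melanocytic identity genes, 13 were listed, all above the median of listed genes, with a median of 1219 per kb. PMEL at 11535 per kb, SOX10 at 6839, DCT at 3782 and MLANA at 2574 were the highest, and the absent genes were TYRP1 and KIT. Apart from SNAI2, each of the 6 genes lay below the melanocytic median.

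Of 18 other genes of dedifferentiated or neural crest melanoma, 11 were listed, with a median of 92.9 per kb, and 5 of the 11 lay above the median of listed genes. The matrix protein gene TNC at 3108 per kb, the adhesion molecule gene L1CAM at 1795, the AP-1 subunit gene FOSL1 at 598.7 and THBS1 at 371.1 were the highest. WNT5A, a noncanonical Wnt ligand, stood at 9.90 per kb and NRP1 at 15.5, while PDGFRB, PDGFRA, ROR2, SOX2, NES, GFRA2 and AQP1 were absent.

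Of 14 other EMT factors and helix-loop-helix partners, 8 were listed, with a median of 193.4 per kb. Inhibitors of helix-loop-helix binding were the highest, with ID3 at 2207 per kb, ID1 at 772.4 and ID2 at 270.5, followed by TWIST1 at 264.1. The inhibitor gene ID4 stood lower, at 107.0 per kb, below the median of the list. With longest transcripts or all exons, ID2 (172.2 or 158.8 per kb) lay below TWIST1 (264.1 or 215.5). TWIST2, PRRX1, PRRX2, FOXC2 and GSC were absent with SNAI3. Of 12 epithelial genes, 5 were listed, with a median of 62.0 per kb. CDH1 at 97.8 per kb lay above this median and below KRT18 at 165.4 per kb, the highest, but not below it with all exons (77.4 per kb for CDH1 and 76.1 per kb for KRT18). DSP followed at 92.2 and TJP1 at 62.0 per kb, CLDN1 lay below these, and EPCAM, KRT8, KRT19, CLDN4, CLDN7, CRB3 and GRHL2 were absent.

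Among 17 ligands and partners of AXL, NGFR and CD44, 14 were listed, with a median of 159.6 per kb. The highest were genes whose proteins tie membrane receptors such as CD44 to actin or sort NGFR, with MSN at 1852 per kb, SORT1 at 1395, RDX at 884.2 and EZR at 570.0 per kb. HAS2, which makes the CD44 ligand hyaluronan, stood at 300.4 per kb and ESRP1, an epithelial regulator of CD44 splicing, at 163.0 per kb. BDNF, a ligand of NGFR, was absent together with NTRK3 and ESRP2.

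**Figure D3:**
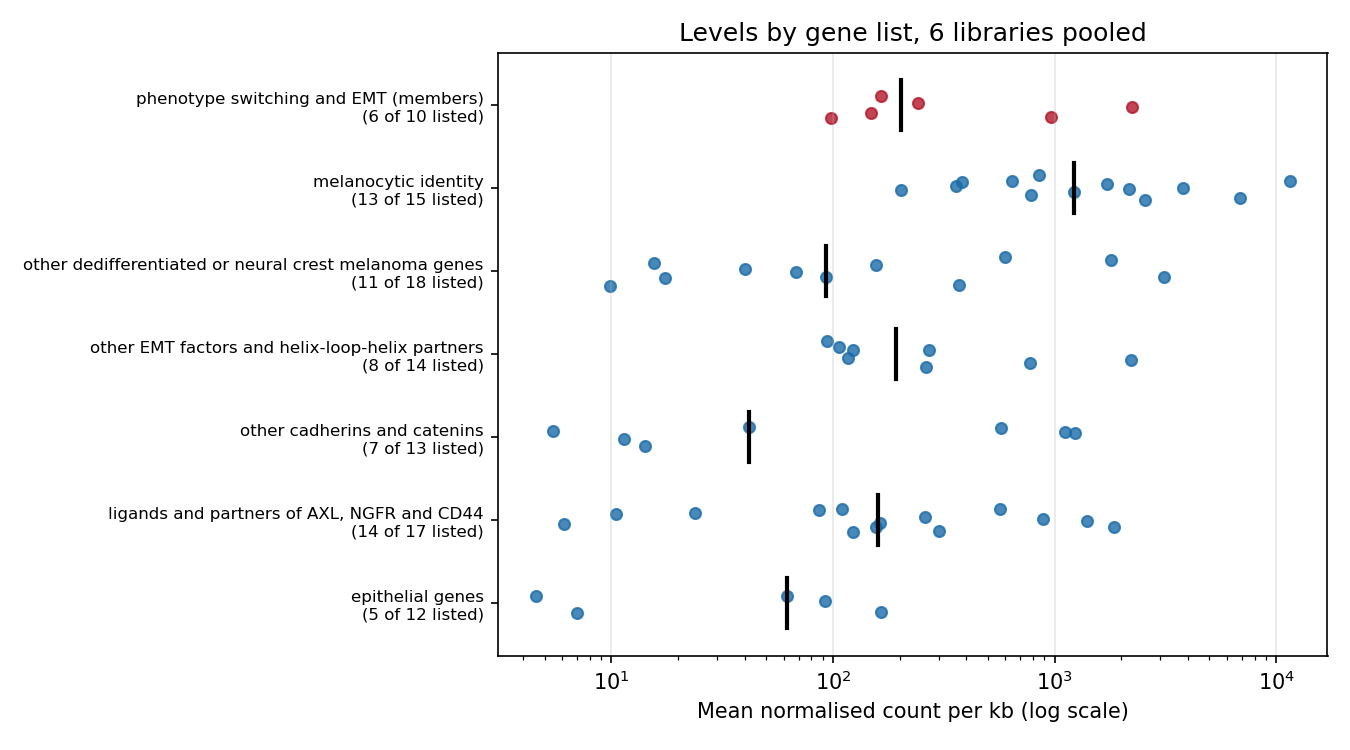
Mean normalised counts per kb of canonical transcript (log axis, all 6 libraries pooled) for the 6 listed phenotype switching and EMT genes in red and for the listed members of 6 related lists in blue, with the median of each list as a black bar. The melanocytic identity list has the highest median, 1219 per kb, and SNAI2 at 2239 per kb lies above it.

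Promoter sequences were examined because SNAI2, ZEB1 and ZEB2 bind the E-box CAGGTG and MITF binds the M-box core TCATGTG. Both strands were searched. RefSeq promoter windows (GRCh38.p14) of 250 bases before the start site were found for 6 of the 10 genes, in 23 windows, because several genes have more than 1 start site. NGFR, SOX9, SNAI2 and CDH1 had no window in this table. CAGGTG on either strand was in 3 of the 23 windows and in 17.5% of all 35116 windows of the same length. TCATGTG on either strand was in 1 of the 23 and in 2.52% of all windows. The other 19 windows, among them the CD44 window and both CDH2 windows, held neither. The ZEB2 window is shown as the one with the M-box core, read on the opposite strand 180 bases before the start, and an AXL window as an example with an E-box, 106 bases before the start. Capitals mark these matches, and a match is a description of letters, not a bound site.
ZEB2, chr2:144520120-144520369, minus strand: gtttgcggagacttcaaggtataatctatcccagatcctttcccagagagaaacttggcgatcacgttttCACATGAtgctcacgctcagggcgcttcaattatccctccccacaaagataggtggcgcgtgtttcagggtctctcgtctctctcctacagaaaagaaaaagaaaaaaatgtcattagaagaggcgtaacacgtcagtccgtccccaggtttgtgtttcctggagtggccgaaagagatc
AXL, chr19:41218973-41219222, plus strand: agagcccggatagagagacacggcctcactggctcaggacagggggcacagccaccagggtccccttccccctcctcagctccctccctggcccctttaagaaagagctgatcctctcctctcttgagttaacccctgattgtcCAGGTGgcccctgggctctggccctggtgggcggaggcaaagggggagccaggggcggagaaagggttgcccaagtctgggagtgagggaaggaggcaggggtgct
The remaining 2 windows with CAGGTG belong to ZEB1, at 57 bases before one start and at 242 and 85 bases before another.

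Some exons are shared with neighbours. The antisense gene ZEB2-AS1 shares 1299 exon bases with ZEB2. With NGFR, the antisense genes ENSG00000279036 and NGFR-AS1 share 924 and 202. With CD44, CD44-AS1 and CD44-DT share 84 and 70. Other antisense genes share 347 exon bases with CDH1, 307 with CDH2 and 121 with SNAI2. The pseudogene AC009951.1 shares 2966 exon bases with ZEB2 on the same strand. Neither it nor these antisense genes were listed. The targeted gene DANCR shares 751 exon bases with the listed antisense pseudogene ENSG00000248375 (mean normalised count 31.6). DANCR also shares 127 with ERVMER34-1 (68.6), antisense and listed, and 270 with the unlisted LINC01618 on its own strand. It is not stated whether the authors counted by strand, and without that, reads of an antisense pair cannot be told apart. Counting by strand would not separate ZEB2 from AC009951.1, since both lie on the same strand.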

How the data were processed

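Poly(A) RNA from 3 siDANCR and 3 control SK-MEL-28 libraries was sequenced with strand marking. The authors used Trim Galore 0.4.4 for trimming, Bowtie 1.1.2 for alignment to hg19 and DESeq2 for the comparison, according to the submitters' processing notes. Annotation and counting tool: not given in the sources used here. The deposited signal is the mean over all 6 libraries of counts scaled by the authors for depth. The exact depth per library is unknown, although the paper states a minimum number of mapped reads for each sample. The sheet also holds the authors' own comparison of siDANCR with control (fold change, SE, statistic, p and adjusted p), and a further sheet holds genes chosen on it. Neither was used. The planned test needed values per library, so none was run.

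Identifiers without version were matched to GENCODE v44 lifted to GRCh37, which named 13161 genes and left 288 unnamed. Canonical transcript lengths were found for 13029. Levels per kb are means divided by length times 1000. Alternatives were other lengths, protein-coding genes only, and minimum means of 50 and 100. Calculations used Python 3.11.15 with pandas 2.3.3 and numpy 2.4.6, and plots matplotlib 3.10.9. The length and rank functions were tested on simulated data. All 10 genes, and the 4 highest listed genes of each list, were named by rule. The rule also covered the absent genes of the melanocytic identity list and of the list of ligands and partners. Genes outside it were SNAI1, SNAI3, TCF3, TCF12, ID4, TYRO3, MERTK, PROS1, GAS6, NTRK2, HAS2, ESRP1, EGFR, WNT5A, NRP1, MITF, TYR, JUP, CDH19, CDH4, the cell type markers and the absent genes of the other lists. A few genes were dropped from the lists, enter no count and are not reported here. PECAM1 had no identifier to match and was not counted. The members and lists were chosen with earlier results of these data known.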

Additional observations from a re-analysis of the deposited data

How the results depend on the processing

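No paired analysis was possible because only a mean over all 6 libraries is given. Without single libraries, the planned edgeR test was not run. Nor were a DESeq2 test, low-count filters on counts per library or the omission of single libraries. The ratio of ZEB2 to ZEB1 has no value because ZEB1 was not listed. The ratio of CDH2 to CDH1 per kb was 1.68 with canonical and with longest transcripts and 0.99 with all exons together. All exons left both genes nearly level, because the annotated exons of CDH2 outside its canonical transcript are long. All exons lowered the level of ZEB2 by a factor of 2.82 and placed it below NGFR (86.0 and 122.5 per kb), while SNAI2 (1488) and CD44 (524.5) stayed first and second. With longest transcripts 2 of 6 levels moved, those of SNAI2 (1726) and ZEB2 (234.6). Percentiles among protein-coding genes moved by at most 1.68 points. All 6 listed genes passed minimum means of 50 and 100. All exons also turned the order of ZEB2 and SNAI1 (ratio 0.73) and left CDH1 and KRT18 nearly level (1.02). Longest transcripts turned the order of SNAI2 and MITF (0.79). Both alternative lengths turned that of ID2 and TWIST1. The mean over both groups hides any difference between siDANCR and control cells.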
